A study of Arabidopsis thaliana with 9 samples.

Results

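The subject is a set of Arabidopsis thaliana genes whose symbol in the annotation is a locus code. Their transcripts were higher after 2 d on the compound FPX than before transfer, then lower again by 8 d. The members were chosen by measured values. For each probe set, the group of short probes that reads 1 transcript on an Affymetrix array, the group means of log2(signal + 16) were compared. A probe set was kept if FPX 2 d minus 0 d was at least 0.75, FPX 8 d minus FPX 2 d was at most −0.75, and FPX 8 d minus 0 d was above −0.4. Of 5072 probe sets that belong to 1 gene named by a locus code, 72 met these limits, and they stand for 71 of 5040 genes. The choice used all 3 differences between groups, so none of them is tested on the members, and counts of members that a fit over all probe sets called are given only beside the share of all probe sets. The differences are given as descriptions, on the log2(signal + 16) scale, with the standard error (SE) of a limma fit.

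Transcript levels were measured in whole seedlings of wild-type Arabidopsis on 9 arrays, 3 for each group. The 0 d group is 4-day-old seedlings on Murashige and Skoog (MS) medium, the FPX 2 d group such seedlings after 2 d on MS medium with 45 µM FPX, and the FPX 8 d group after 8 d on it. FPX is fipexide, a small molecule that the series' title names as an inducer of callus formation and shoot regeneration. FPX-treated seedlings were also older than the 0 d seedlings, and the 0 d arrays are shared with another series, so that treatment, age and any batch of arrays cannot be told apart in differences from 0 d. The 8 d seedlings were also 6 d older than the 2 d seedlings. Whether replicate arrays came from separate cultures is not given by the labels, so their spread may be technical.

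Callus is a mass of dividing cells that plant tissue forms on medium rich in auxin and cytokinin, and it is known to start in part through the genes of lateral root formation. A transcript that is high early and lower later in such tissue can belong to any of many processes, and a locus code says only on which chromosome a gene lies and in which order. The reference gene table gave a description in words for 3 of the 71 genes. AT5G64120 is peroxidase 71 (PRX71), of the secreted class III peroxidases, which use hydrogen peroxide and act on the cell wall. AT4G13840 is CER26 (ECERIFERUM 26), known for its part in making the very long chains of leaf surface waxes. AT3G21670 is NPF6.4, of a family of transporters for nitrate, peptides and other solutes. The other 68 are given by their codes, with no role.

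The arrays as a whole set the scale for these genes. The table held 11228 probe sets beside 21 Affymetrix controls, and 11202 of them (99.77%) passed a one-way comparison of the 3 groups at a bound of 0.04, so it had been selected for probe sets that differ between groups. High shares of called probe sets follow in part from that selection, and adjusted p-values over this table do not keep their nominal error rate. Replicate arrays had Pearson correlations of 0.986 to 0.990 across probe sets, which are not independent replicates. The median difference over all probe sets was 0.17 for 2 d minus 0 d, 0.36 for 8 d minus 0 d and 0.15 for 8 d minus 2 d. Of the 8 dividing-cell markers 5 were measured, and all 5 were called higher at 2 d than at 0 d, as were 44.6% of all probe sets. Their summed signal lay between 941 and 983 on 0 d arrays, between 3003 and 3193 on 2 d arrays and between 2196 and 2540.1 on 8 d arrays. Among these, AUR1 and AUR2, Aurora kinases of mitosis, had differences of −0.47 and −0.73 between 8 d and 2 d, HTR12, the centromeric histone, −0.37, TOPII, topoisomerase II, −0.25, and AUR3 0.65. The 3 measured leaf markers of 5 had sums between 30679 and 34074 on 0 d arrays, 23955 and 25688 on 2 d arrays, and 11545 and 13750.0 on 8 d arrays. The 2 measured genes of 4 listed for stomata had sums between 632 and 766 on 0 d arrays, 295 and 365 on 2 d arrays, and 92.4 and 156 on 8 d arrays. Of these, STOMAGEN was at −1.45 for 2 d minus 0 d and FMA at 0.05. STOMAGEN alone gave 509 to 644 on 0 d arrays, most of the sum. The sum is therefore not read as an amount of stomatal cells. The 2 genes listed for root, PYK10 and NAI2, were both measured. Their sums lay between 17415 and 17631 on 0 d arrays, 13315 and 14282 on 2 d arrays, and 13539 and 14710.1 on 8 d arrays. PYK10 was at −0.08 and NAI2 at 0.53 for 8 d minus 2 d, and whether they mark root alone was not tested. Phloem markers (2 of 3) had sums between 876 and 1197 on 0 d arrays, 902 and 1045 on 2 d arrays, and 815 and 887 on 8 d arrays. This sum hides opposite courses, with CLE41 at −0.79 and CLE44 at 1.36 for 2 d minus 0 d. The seed marker (1 of 3) lay between 60.3 and 71.3 on 0 d arrays, 32.1 and 49.4 on 2 d arrays, and 124 and 146 on 8 d arrays. No measured marker was at 0, and their part in the members' values was not tested. In whole seedlings more cells of a type and more RNA per cell cannot be told apart.

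A rise at 2 d that was lost in whole or in part by 8 d was the lesser course among early risers. Of the 5072 locus-code probe sets 852 were higher at 2 d than at 0 d by at least 0.75. By 8 d, 609 of these (71.5%) had moved by less than 0.75 from their 2 d level, 147 (17.3%) were higher by at least a further 0.75, 72 (8.5%) are the members, and 24 (2.8%) had dropped to 0.4 or more below their start. The 72 are 1.42% of the locus-code probe sets, against 1.21% of the 909 probe sets of genes with a symbol of their own and 1.51% (170) of all 11228. The members' share is thus near that of the whole table. The other probe sets among the 170 were 11 of genes with a symbol, 5 of several genes and 82 that the annotation table did not list.

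**Figure D1:**
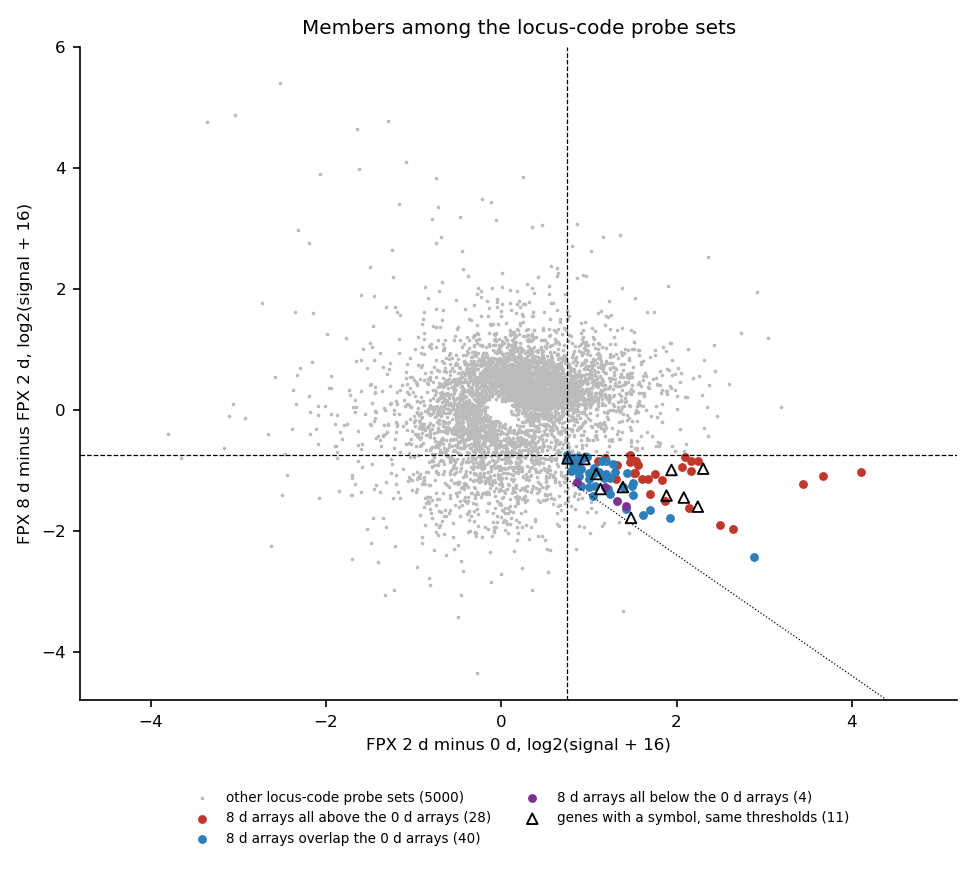
Each point is a probe set of 1 locus-code gene, by FPX 2 d minus 0 d (x axis) and FPX 8 d minus FPX 2 d (y axis), both in log2(signal + 16). Dashed lines mark 0.75 and −0.75 and the dotted line the limit of −0.4 for FPX 8 d minus 0 d. The 72 members are coloured by where the 8 d arrays lay relative to the 0 d arrays (28 above, 40 overlapping, 4 below), and the 11 open triangles are genes with a symbol of their own that meet the same limits.

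Among the members FPX 2 d minus 0 d ran from 0.75 to 4.1 with a median of 1.32, and was at least 1 in 57 of 72 and at least 2 in 12. FPX 8 d minus FPX 2 d ran from −2.43 to −0.75 with a median of −1.06, and was −1 or lower in 46. FPX 8 d minus 0 d ran from −0.38 to 3.08 with a median of 0.18. The median member thus kept 14.3% of its early log2 difference at 8 d, and the range was −39.2 to 75%. The 2 d arrays stood apart from those of 0 d and 8 d in nearly all members, as the limits favour. All 72 had each 2 d array above each 0 d array, which was so for 46.2% of all probe sets, and 71 had each 8 d array below each 2 d array, against 33.3%. In the limma fit 72 of 72 were called higher at 2 d than at 0 d (44.6% of all probe sets) and 72 lower at 8 d than at 2 d (32.1%). These counts follow from the choice of members, and nothing is read from them. In that fit 5005 probe sets were higher and 3155 lower at 2 d than at 0 d, against 3542 and 4116 with array medians set equal and 3694 and 3542 after quantile normalization.

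Where the members stood at 8 d varied more than the rule required. In 28 members each 8 d array lay above each 0 d array (55.2% of all probe sets), in 40 the arrays overlapped, and in 4 each 8 d array lay below (36.6%). The limma fit called 29 members higher at 8 d than at 0 d (54.9% of all probe sets) and 1 lower (36.1%). The choice used this difference too and left out probe sets at −0.4 or lower, so few members could be below, and nothing is read from these counts. The 28 had a median of 1.73 for the early difference and kept a median of 38.0% of it, while the 40 had a median of 1.10 and kept 2.6%. The split was made by where the 8 d arrays lay, so the kept shares differ by construction. The split also changed with the scaling between arrays, as given below, and is not read as different kinds of course. For 8 members the 8 d mean was still at least 0.75 above the 0 d mean, and for these the word transient describes a drop from a peak and not a return. For 48 it lay within 0.4 of the 0 d mean.

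**Figure D2:**
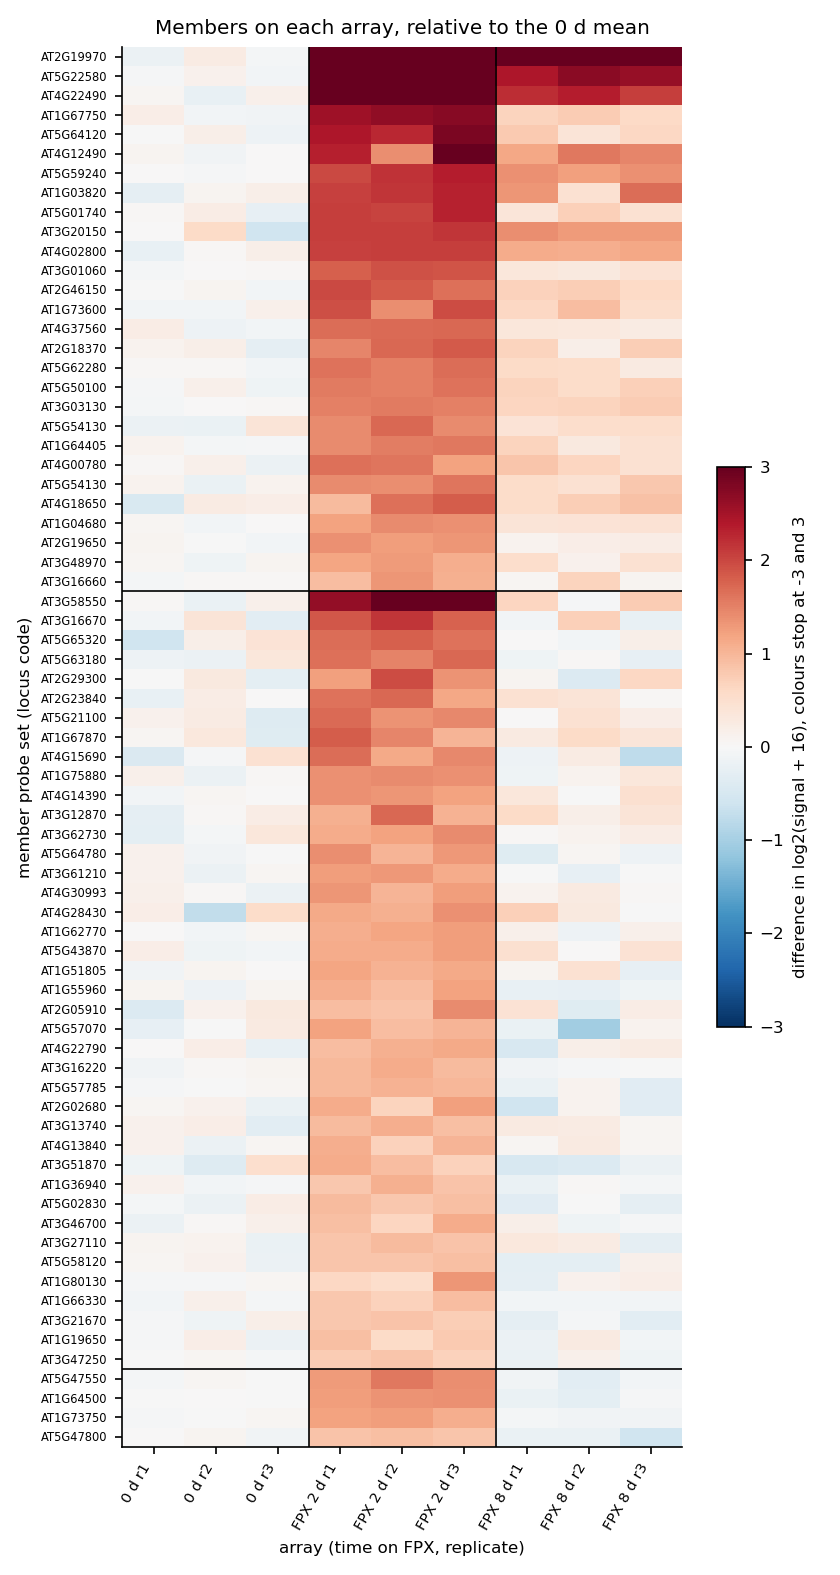
Each row is a member probe set and each column an array, in order of time on FPX. Colour is log2(signal + 16) minus the 0 d mean of that row, with the scale stopped at −3 and 3. Horizontal lines part the 28 members whose 8 d arrays all lay above the 0 d arrays (top), the 40 that overlapped and the 4 below. All rows are red at 2 d, and the top 3 rows stay red at 8 d.

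The 3 members with the highest early differences were also those that ended farthest above their start. AT2G19970 had signals of 428, 578 and 466 at 0 d, 8052, 8681 and 9184 at 2 d, and 4553, 4249 and 3906 at 8 d. Its mean was 17.6 times the 0 d mean at 2 d, and its difference of 4.1 ± 0.11 (SE) for 2 d minus 0 d was followed by −1.03 for 8 d minus 2 d. The 3 groups were well apart, and 75% of the early log2 difference remained at 8 d. AT5G22580 had 265, 298 and 255 at 0 d, 3797, 3927 and 3295 at 2 d, and 1543, 1860.2 and 1743 at 8 d. AT4G22490 had 152, 123 and 164 at 0 d, 2377, 1474 and 1504 at 2 d, and 739, 806 and 663 at 8 d, with replicate 1 high at 2 d. For both, the groups were apart as well, and 8 d minus 0 d was 2.58 and 2.22.

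A second set ended at about 1.1 to 1.4 above the start. AT4G02800 had 116, 141 and 157 at 0 d, 620.1, 628 and 626 at 2 d, and 316, 310.0 and 327 at 8 d, with little spread in both FPX groups. AT1G03820 had 116, 150.04 and 163 at 0 d, 634, 682 and 759 at 2 d, and 377, 202 and 486 at 8 d, where replicate 2 was low. Without that 8 d array AT1G03820 did not meet the limits. AT4G12490 had 111, 94.7 and 104 at 0 d, 581, 299 and 939.7 at 2 d, and 249, 339 and 316 at 8 d. Its 2 d arrays were far apart, and it was the 1 member whose 8 d and 2 d arrays overlapped. It did not meet the limits without replicate 3 at 2 d or without replicate 1 at 8 d. AT3G20150 had 66.0, 104 and 37.7 at 0 d, 327, 323 and 339 at 2 d, and 197, 179 and 179.5 at 8 d. Its FPX arrays were close together, and the spread lay at 0 d.

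The steepest drops after 2 d were in members that came back toward their start. AT3G58550 had 84.6, 70.3 and 93.3 at 0 d, 591, 763 and 799 at 2 d, and 137, 80.5 and 151 at 8 d. Its difference of 2.89 ± 0.19 (SE) for 2 d minus 0 d was followed by −2.43 for 8 d minus 2 d, the lowest of all members. Replicate 2 at 8 d lay within the 0 d values and the other 8 d arrays above them. AT1G67750 had 683, 559 and 546 at 0 d, 3542, 3859 and 4012 at 2 d, and 951, 1022 and 903 at 8 d. Its 3 groups did not overlap, and 8 d minus 2 d was −1.97. AT5G64120 (PRX71), the peroxidase gene, had 657, 748 and 596 at 0 d, 3617, 3231 and 4829 at 2 d, and 1156, 872 and 1037 at 8 d. The differences of PRX71 were 2.5 ± 0.15 (SE) for 2 d minus 0 d, −1.90 for 8 d minus 2 d and 0.60 for 8 d minus 0 d. Its groups did not overlap, but with array medians set equal the 8 d and 0 d arrays did.

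Further members that stayed a little above or near the start also dropped steeply. AT5G01740 had 439, 502 and 359 at 0 d, 1855, 1812 and 2194 at 2 d, and 555, 715 and 592 at 8 d. AT3G01060 had 406, 423 and 434 at 0 d, 1501, 1635 and 1595 at 2 d, and 539, 519 and 578 at 8 d. In both, each 8 d array was above each 0 d array, and 8 d minus 2 d was −1.63 and −1.5. AT5G63180 had 281, 275 and 398 at 0 d, 1015, 910.4 and 1076 at 2 d, and 286, 322 and 260.2 at 8 d, with 8 d and 0 d overlapping and a drop of −1.74 from 2 d. AT3G16670 is described with its neighbour below. AT5G21100, with a smaller drop of −1.27, had 228, 249.9 and 155 at 0 d, 706, 556 and 587 at 2 d, and 209.9, 292 and 239.9 at 8 d, again with 8 d and 0 d overlapping.

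In 4 members each 8 d array lay just below each 0 d array. AT5G47550 had 1937, 2092 and 2006 at 0 d, 4912, 6082 and 5271 at 2 d, and 1867, 1608 and 1902 at 8 d. AT1G64500 had 233, 238 and 234 at 0 d, 579.9, 623 and 633 at 2 d, and 203, 188 and 227 at 8 d. AT1G73750 had 286, 289 and 303 at 0 d, 693, 720.5 and 644 at 2 d, and 280.1, 269.9 and 269 at 8 d. The first of them, AT5G47550, was at −0.17 for 8 d minus 0 d, AT1G64500 at −0.18 and AT1G73750 at −0.09, all small beside their early differences of 1.42, 1.32 and 1.19. AT5G47800 was lower, at −0.32, and was the 1 member that the fit called lower at 8 d than at 0 d, with 89.6, 94.4 and 81.1 at 0 d, 173, 179 and 170.4 at 2 d, and 75.4, 74.9 and 53.3 at 8 d. Under the scaling on hybridization controls none of the 4 lay below its start.

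Several members with smaller early differences came back to the range of their start or under it. The wax gene CER26 (AT4G13840) had 246, 197 and 236 at 0 d, 496, 373 and 472 at 2 d, and 235, 273 and 235 at 8 d. The difference of CER26 was 0.93 ± 0.12 (SE) for 2 d minus 0 d and −0.81 for 8 d minus 2 d, and its 8 d arrays overlapped those of 0 d. The transporter gene NPF6.4 (AT3G21670) had 875, 824 and 1014 at 0 d, 1589, 1638 and 1504 at 2 d, and 745, 866 and 726 at 8 d. NPF6.4 was at 0.80 ± 0.10 (SE) for 2 d minus 0 d, −1.01 for 8 d minus 2 d and −0.21 for 8 d minus 0 d, with 1 of its 8 d arrays within the 0 d range. AT1G55960 had 645, 544 and 645 at 0 d, 1305, 1167 and 1435 at 2 d, and 521, 514 and 559 at 8 d. AT3G51870, the member that ended lowest against its early difference, had 319.9, 267 and 508 at 0 d, 775, 686 and 579 at 2 d, and 247, 262 and 309 at 8 d. Replicate 3 at 0 d lay close to the lowest 2 d array, and this gene did not meet the limits without replicate 1 or 2 at 0 d or without replicate 3 at 8 d.

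**Figure D3:**
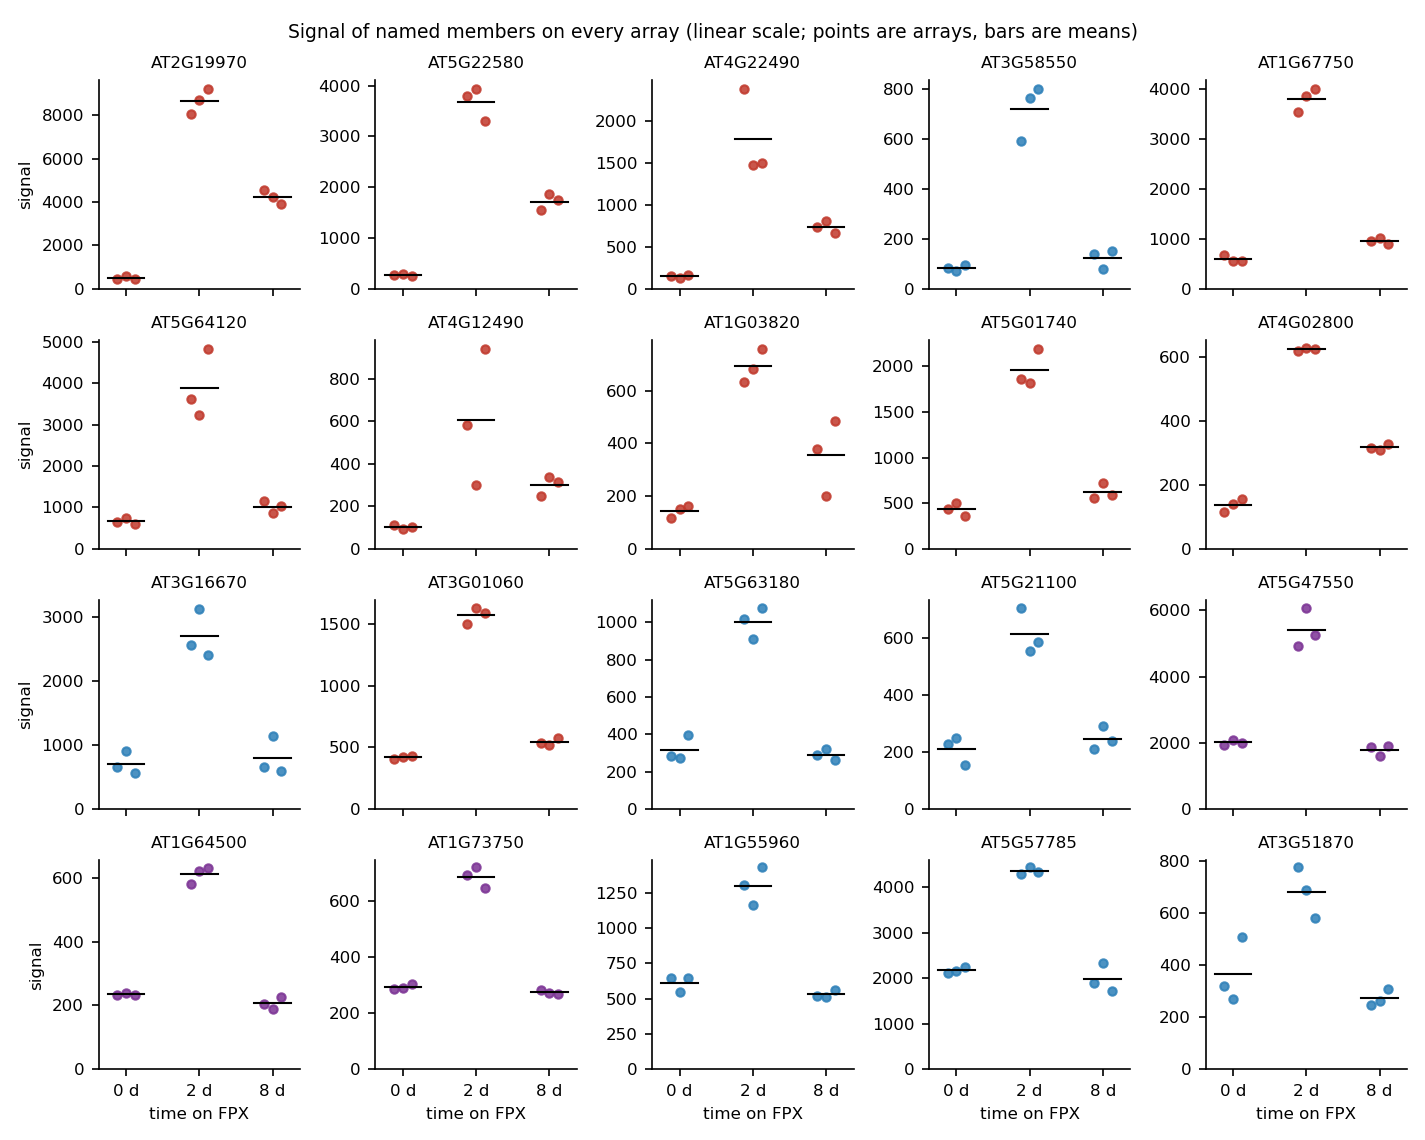
Signal on a linear scale (y axis, from 0) on every array at 0, 2 and 8 d on FPX (x axis) for 20 named members, in order of their early difference. Points are arrays and bars are means of 3. Red marks members whose 8 d arrays all lay above the 0 d arrays, blue those that overlapped and purple those below. AT2G19970, AT5G22580 and AT4G22490 keep most of their early log2 difference at 8 d, while AT3G58550 and those in purple do not.

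How the arrays are brought to a common level moves both the early part of this course and its 8 d end. Under the 3 other scalings tried (array medians set equal, quantile normalization, and a scaling on 7 hybridization control probe sets) all 72 members kept each 2 d array above each 0 d array, and the lowest early difference was 0.47. At least 70 kept each 8 d array below each 2 d array, and no value of 8 d minus 2 d was above −0.61. Members were chosen for large values of both differences, so these counts could hardly change and show no stability. The median early difference was 1.32 as deposited, 1.15 with medians set equal, 1.15 after quantile normalization and 1.43 on hybridization controls. The median of 8 d minus 0 d was 0.18 as deposited, −0.07 with medians set equal, −0.02 after quantile normalization and 0.43 on hybridization controls. The number of members with all 8 d arrays above the 0 d arrays was 28 as deposited and 18, 17 and 40 under these, and the number below was 4, then 18, 14 and 0. In 15 members the 8 d arrays were above under all 4 scalings, in 17 they overlapped under all 4, and in 0 they were below under all 4. The 15 include AT2G19970, AT5G22580, AT4G22490, AT4G12490, AT3G20150, AT4G02800, AT5G59240 and AT1G67750. AT3G01060 and PRX71 (AT5G64120) are not among them, and AT1G73750 was below under 3 scalings and above under the scaling on hybridization controls.

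**Figure D4:**
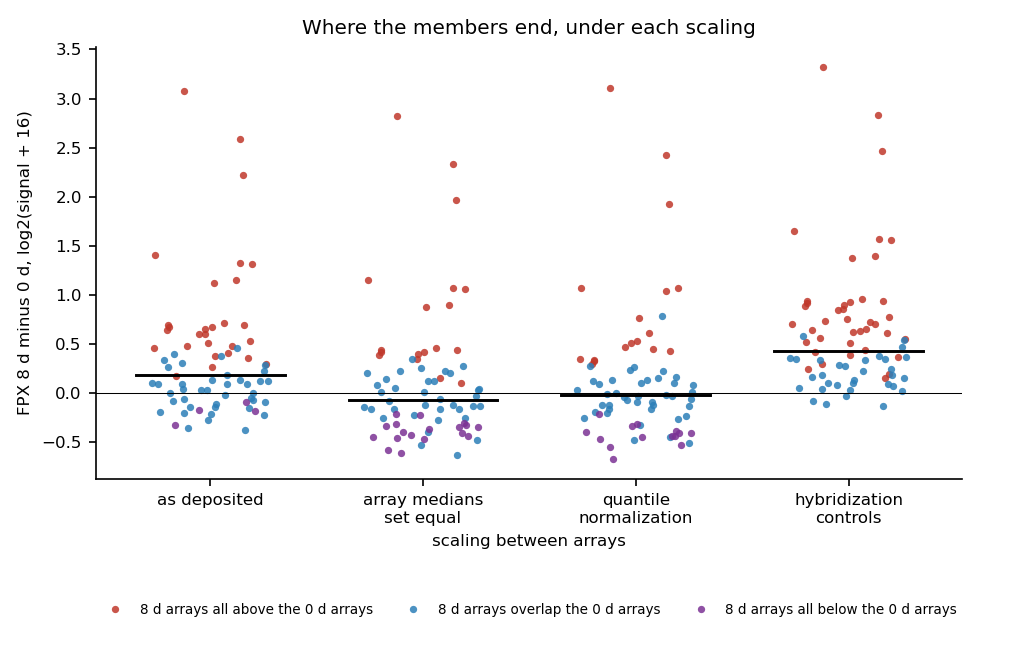
FPX 8 d minus 0 d in log2(signal + 16) (y axis) for the 72 members under each of 4 scalings between arrays (x axis). Points are members, spread sideways at random to keep them apart, with the same colours for where the 8 d arrays lay, and bars are medians (0.18, −0.07, −0.02 and 0.43). The 3 highest members stay near or above 1.9 throughout, and the purple points are absent on the right.

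Within a group, the median over members differed little between arrays. The median member lay 1.3, 1.35 and 1.35 above its 0 d mean on the 3 arrays at 2 d, and 0.21, 0.25 and 0.21 above it on those at 8 d. The members were chosen on the means of these arrays, and the medians do not show whether 1 array decides a single member. The median SD of a member on the log2(signal + 16) scale (n = 3) was 0.167 at 0 d, 0.131 at 2 d and 0.175 at 8 d, against 0.120, 0.102 and 0.113 over all probe sets. AT4G28430 showed a wide spread, with 61.0, 24.4 and 82.3 at 0 d, 132, 126 and 157 at 2 d, and 95.5, 67.0 and 50.4 at 8 d.

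How far the choice rests on single arrays was described by leaving out 1 at a time. The members were chosen again 9 times, each time without 1 array, and then read on the array left out. Without 1 of the 2 d arrays, 70 to 77 probe sets were chosen, and their median early difference of 1.29 to 1.32 on the arrays used was 1.25 to 1.34 on the array left out. Of those chosen, 61 to 69 (87.0 to 92.0%) reached 0.75 on it. Without 1 of the 8 d arrays, 69 to 72 were chosen, with a median drop from 2 d of −1.12 to −1.06 on the arrays used and −1.10 to −1.03 on the array left out, where 55 to 59 (79.7 to 82.9%) reached −0.75. Each value on an array left out is a difference from the mean of another group, and the arrays of that group had taken part in the choice. These values are therefore a description and no independent check. Of the 72 members, 50 met the limits in all 9 repeats and 22 did not in at least 1.

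Probe sets beside the limits show how little separates a member from its neighbours on the scale. Just inside on the early difference were AT3G47250 (0.75), AT1G19650 (0.76) and NPF6.4 (0.80 for AT3G21670), and just outside AT2G37240 (0.75, below the limit in the next digit), AT1G71480 (0.74) and AT3G16560 (0.74). For 8 d minus 2 d, AT4G18650 (−0.75), AT1G19650 (−0.75) and AT3G20150 (−0.78) were just inside, and AT5G48800 (−0.74), AT2G43590 (−0.74) and AT5G63710 (−0.73) just outside. For 8 d minus 0 d, AT5G57070 (−0.38), AT3G51870 (−0.36) and AT5G47800 (−0.32) were just inside, and AT3G53650 (−0.43), AT3G10080 (−0.50) and AT1G10640 (−0.50) just outside.

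One gene was read by a pair of probe sets that both became members. For AT5G54130, the first gave 118, 116 and 183 at 0 d, 392, 487 and 391 at 2 d, and 185, 201 and 202 at 8 d. The other gave 167, 133 and 167 at 0 d, 439.5, 433 and 502 at 2 d, and 232, 219 and 284 at 8 d. Their early differences of 1.52 and 1.47 and their 8 d minus 2 d differences of −1.04 and −0.86 were each within 0.2 of the other's, less than the sum of their SEs of 0.15 and 0.12. On both, the 8 d arrays lay above those of 0 d. No other probe set in the table listed a member's gene.

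The place of the members on the chromosomes took no part in their choice. The 71 genes were spread over chromosome 1 (16), chromosome 2 (8), chromosome 3 (17), chromosome 4 (12) and chromosome 5 (18). Per 100 locus-code genes of the table that is 1.21, 1.10, 1.63, 1.67 and 1.46, in that order of chromosomes. Of the protein-coding genes directly next to a member, 38 probe sets were in the table, and 11 of these (28.9%) had an early difference of at least 0.75. Of those 11, 2 are members that lie next to each other and so were chosen for that value. Without them 9 of 36 (25%) had one, with a median early difference of 0.34 over the 36. Next to any locus-code gene of the table, 412 of 2471 (16.7%) had one. The members' neighbours are few, and the shares are a description.

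AT3G16660 and AT3G16670 were the 1 pair of members that lie side by side. AT3G16670 had 661, 913 and 558 at 0 d, 2575, 3141 and 2411 at 2 d, and 654, 1147 and 597 at 8 d. AT3G16660 had 212, 228 and 228 at 0 d, 440.4, 581 and 486 at 2 d, and 232, 362 and 237 at 8 d. Replicate 2 was the highest array of AT3G16670 in all 3 groups, and of AT3G16660 at 2 d and 8 d. The early difference was 1.93 ± 0.23 (SE) for AT3G16670 and 1.11 ± 0.15 for AT3G16660. AT5G57785 lies next to P1R1 (AT5G57780), a gene with a symbol of its own that met the same limits. AT5G57785 had 2117, 2148 and 2250.2 at 0 d, 4294, 4454 and 4330.2 at 2 d, and 1888, 2327 and 1714 at 8 d. P1R1 had 372, 392 and 347 at 0 d, 971, 1211 and 833 at 2 d, and 395, 456 and 356 at 8 d. Both were apart from the other groups at 2 d alone, with early differences of 1.0 and 1.39.

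Other neighbours that were higher at 2 d ended away from their start. AT4G15690 had 101, 139 and 198 at 0 d, 485, 333 and 411 at 2 d, and 125, 172 and 76.2 at 8 d. Beside it, AT4G15680 had 360.0, 303 and 238 at 0 d, 1124, 687 and 769 at 2 d, and 207, 182 and 189 at 8 d, so that its 8 d minus 2 d difference of −2.04 was lower than the −1.65 of AT4G15690, and at −0.58 for 8 d minus 0 d it was outside the limits. AT1G67870 had 347, 417 and 253 at 0 d, 1214, 949 and 691 at 2 d, and 401, 500.0 and 432 at 8 d. Its neighbour AT1G67865 was high at 2 d and stayed so, with 37.7, 75.4 and 33.6 at 0 d, 455, 342 and 227 at 2 d, and 388, 259.7 and 278 at 8 d. For AT1G67870 and AT1G67865 alike, replicate 1 was the highest and replicate 3 the lowest of the 2 d arrays. AT2G18370, a member at 1.68 for the early difference and −1.15 after it, lies beside AT2G18360, which had 143, 117 and 169 at 0 d, 469.8, 443 and 527 at 2 d, and 500.4, 448 and 488 at 8 d. These pairs were named after their values were seen, and whether probes of 1 gene of a pair also bind the other's transcript was not tested.

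**Figure D5:**
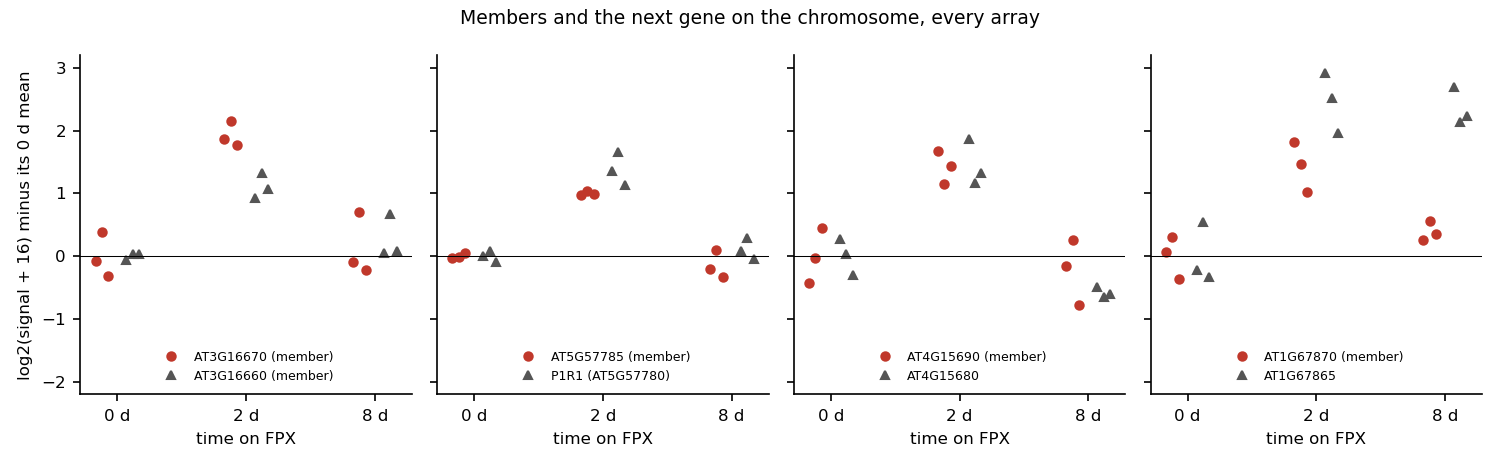
Log2(signal + 16) minus the 0 d mean of the same probe set (y axis) on every array at 0, 2 and 8 d on FPX (x axis), for 4 members (red circles) and the protein-coding gene next to each (grey triangles). AT3G16660 and P1R1 come back near their start at 8 d with their neighbours, AT4G15680 goes below it and AT1G67865 stays more than 2 above it.

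The members not described so far followed the same course with values inside the ranges given. Those that ended above the start included AT5G59240, with 81.2, 77.8 and 81.5 at 0 d, 363, 416 and 478 at 2 d, and 233, 210.2 and 233 at 8 d. AT5G62280 had 764, 767 and 709 at 0 d, 2337, 2164 and 2415 at 2 d, and 1117, 1092 and 902 at 8 d. AT1G04680 had 1269.7, 1168 and 1247 at 0 d, 2842, 3297 and 3174 at 2 d, and 1604, 1628 and 1662 at 8 d. In these last 2 genes, as in AT5G59240, the 3 groups were apart. Those that came back included AT1G62770, with 676, 637 and 697 at 0 d, 1436, 1543 and 1626 at 2 d, and 745, 598 and 742 at 8 d. AT1G66330 had 776, 906 and 781 at 0 d, 1454, 1334 and 1579 at 2 d, and 770.4, 778 and 776 at 8 d. AT3G47250, at the edge of the rule, had 902, 944 and 871 at 0 d, 1535, 1616 and 1464 at 2 d, and 787, 1016 and 820.1 at 8 d. In these the 8 d and 0 d arrays overlapped and the 2 d arrays stood alone. These genes except AT3G47250, and also CER26 and AT4G28430, were named after their values were seen.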

How the data were processed

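The authors deposited 1 table of array intensity, a linear signal per probe set on 9 arrays. The submitters' processing notes name MAS5 and no version, and how the arrays were brought to one scale is not stated there. The 75th percentile of signal was 1047 to 1105 and no detection call was used. Precision is limited by having 3 arrays a group.

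Names come from GEO's platform annotation. Gene identifiers were then looked up in RefSeq (TAIR10.1) for current symbols, which matched 5962 of 5981 probe sets of 1 gene. Values were taken as log2(signal + 16), with no filter on dim probe sets. A mean per group was fitted over all 11228 probe sets with limma 3.58.1 in R 4.3.3 (Benjamini-Hochberg, threshold 0.05) and tested on simulated data. Other steps used Python 3.11.15, pandas 2.3.3, NumPy 2.4.6, SciPy 1.17.1 and matplotlib 3.10.9. Alternatives were the pseudocount, the scaling, a filter, a replicate block and leaving out arrays. The members, lists and tests were chosen with earlier results of these data known.

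The genes named were the members with the 12 highest early differences, the 12 lowest of 8 d minus 2 d, and the 6 highest and lowest of 8 d minus 0 d, among those whose 2 d mean was above the median signal. Added were members at the limits, beside each other or with a pair of probe sets. The 2 d mean is the one that the rule made high, so passing this median says nothing of the signal at 0 d or 8 d. AT3G58550 passed with a 2 d mean of 718, against 82.7 at 0 d and 123 at 8 d, and the filter on dim probe sets took it away. The 15 annotation classes were keyword matches, and only 33 of 5040 locus-code genes had a description in words. Each class matched 0 to 2 locus-code genes in all, and 0 to 1 member (the 1 is PRX71, as a wall and secreted protein). The keywords missed NPF6.4 and CER26. Such low counts were nearly fixed in advance and say nothing of the members' roles, so no class was described. Promoters and proteins were not used here. Gene order came from RefSeq, and no coordinate is given because the array's build is not stated.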

Additional observations from a re-analysis of the deposited data

How the results depend on the processing

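The number of members, 72 as reported, was 81 with a pseudocount of 1, 55 with 64, 58 with array medians set equal, 57 after quantile normalization and 80 on hybridization controls, of which 71, 55, 53, 52 and 54 were among the 72. It was 41 without the dimmest 25% of probe sets, all of them among the 72, since that filter only takes probe sets away. Without 1 array it was 69 to 77. Apart from the dim filter, 34 of the 72 met the limits under all 14 of these settings. Over the 30 named member probe sets, 0 of the 1419 alternative values of their 3 differences reversed a called one, and 127 moved by more than the SD between arrays, all under another scaling or pseudocount. Leaving out 1 of 3 arrays can hardly move a mean by that SD, and the block cannot move it, so neither shows stability. Of the 3 differences, 2 were chosen to be at least 0.75 in size and could hardly reverse. For 8 d minus 0 d, 20 of 30 moved with array medians set equal, 18 after quantile normalization and 20 on hybridization controls. In the same order, 14, 10 and 3 moved for 2 d minus 0 d, and 2, 6 and 11 for 8 d minus 2 d. Uncalled values could change sign, as AT1G73750 did from −0.09 to 0.15 on hybridization controls. Without replicate 3 at 2 d, the 8 d minus 2 d difference of AT4G12490 was −0.46, against −0.84 with it. Over all probe sets the fit called 8160 at 2 d relative to 0 d, and 8115 with the replicate block. For 8 d relative to 0 d it called 10217, and 10191 with the replicate block. For 8 d relative to 2 d it called 8534, and 8507 with the replicate block. Without 1 array these counts ran over 7496 to 8197, 9969 to 10209 and 7919 to 8586, and every setting run kept each within 1.5 times. The table had been selected for differences between these same arrays, so neither the size nor the steadiness of these counts is read as a result. Deviations of same-numbered arrays correlated at −0.091 to 0.106 and 6 of 9 arrays correlated best with their own number. Between 2 d and 8 d, same-numbered arrays had 0.078, 0.061 and 0.106, and differently numbered ones −0.068 to −0.005. The labels do not say that the numbers pair arrays, so they were not taken as pairs in the main fit, and pairing was not tested. Signal over background is unknown, and 37 of 72 members had a 2 d mean above the median of all probe sets. That mean is of the group where the rule made members high, and it does not speak for 0 d or 8 d.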

Other observations

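Some of the 11 genes with a symbol of their own that met the same limits are given here as values. They were picked after their values were seen. P1R1 is described above, and ARPN, BGLU33, SBTI1.1, CYP71B29 and GH9B8 are not described. SAG29 (AT5G13170), a sugar transporter gene, had 134, 133 and 156 at 0 d, 693, 721 and 872 at 2 d, and 352, 369.6 and 416 at 8 d. LBD16 (AT2G42430), a transcription factor gene known from lateral root formation, had 139, 173 and 121 at 0 d, 597, 626 and 565 at 2 d, and 264, 279 and 333 at 8 d. In both, the 3 groups did not overlap. ALPHA-VPE (AT2G25940), a vacuolar processing enzyme, was at 2.24 ± 0.17 (SE) for 2 d minus 0 d and −1.60 for 8 d minus 2 d. FACT (AT5G63560), an acyltransferase of suberin waxes, had 99.8, 83.8 and 85 at 0 d, 277, 239 and 323 at 2 d, and 46.8, 96.8 and 70.8 at 8 d, with 8 d and 0 d overlapping. F2KP (AT1G07110), an enzyme that makes and breaks down fructose 2,6-bisphosphate, had 1001, 966 and 953.6 at 0 d, 1803, 1978 and 1911 at 2 d, and 1039.6, 1077 and 1096 at 8 d, with all 3 groups apart.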
